A study of Mesocricetus auratus with 6 samples.

Results

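The genes described here are 48 genes of the cell division cycle: the cyclins and cyclin-dependent kinases (CDKs), the proteins that run mitosis, and the inhibitors that hold the kinases back. Each was taken by its platform gene symbol, and every probe set that the platform annotation assigns to one of them alone was used. That gave 83 probe sets for 47 genes, out of 22215 probe sets and 11963 genes in all. CDKN2C is not analysed here, and 1 further probe set of CENPA was left aside because it is shared with SLC35F6. RNA came from the uterus of Syrian golden hamsters, Mesocricetus auratus, that were 5 days pregnant and had no treatment. The 3 arrays of implantation sites, pieces of uterus labelled as holding the site of an embryo, were set against 3 arrays of interimplantation sites, pieces labelled as non-embryo. The labels call the 3 arrays of a group biological replicates and the design text speaks of 3 animals, but no label ties an array to an animal, so the p-values reflect only how far these arrays spread. All 6 arrays carried probes designed on human transcripts, so that a weak signal can be a poor match to the hamster sequence as well as a scarce transcript.

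A cell divides by switching on CDKs in turn. D-type cyclins with CDK4 and CDK6 start the exit from the resting state, E-type cyclins with CDK2 start DNA replication, cyclin A carries the cell through replication, and cyclin B with CDK1 drives mitosis, after which the anaphase-promoting complex destroys cyclins A and B. In rodents the stroma around an attaching embryo divides and then turns into decidual tissue, and in the mouse cyclin D3 is known for its part in the decidual cells that become polyploid.

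Values are the authors' log2 signals from RMA, a method that subtracts background, equalises arrays and summarises the probes of a set. Array medians lay between 4.18 and 4.20, and arrays of a group correlated at 0.989 to 0.995, against 0.985 to 0.992 between groups. The median probe set had a mean of 4.19 and the first quartile lay at 3.10, and these mark what is called bright or dim here. Of the markers of uterine tissue, 5 of 7 stromal, 7 of 8 smooth muscle and 5 of 9 epithelial ones were at or above the median brightness, while LUM (stroma) and EPCAM (epithelium) lay under the first quartile. A gene is read at its brightest probe set unless stated otherwise, and a difference is the log2 mean of implantation sites minus that of interimplantation sites, with its standard error (SE) from a limma fit across all genes. Adjusted p-values are limma's, after Benjamini-Hochberg over all 11963 genes, with a threshold of 0.05.

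CKS2 and CCNA2 rose at implantation sites and no gene of the set fell. CKS2, the small subunit that CDKs carry, was 2.55-fold higher, the 3rd largest rise of all genes, and CCNA2, cyclin A2, was 1.75-fold higher, the 24th largest. These were 2 of 47 genes, or 4.26%, against a background of 0.777% of all genes that rose, while 0 of 47 fell against 0.46% of all genes. The set was chosen with earlier results of these data known, so its shares are descriptive and not a test. A wider band of 15 genes, CKS2 and CCNA2 included, had a positive difference at an unadjusted p under 0.05, or 31.9% against 5.68% of all genes, and 1 gene, ZWINT, had a negative one, or 2.13% against 5.22%. In each of the 15 the lowest implantation array lay above the highest interimplantation array, and no other member did so, or 31.9% against 8.36% of all genes. This separation rests on the same 6 values as the p-values and is no separate evidence. Of the 680 genes in all with a positive difference at that p, 595 were separated too. In 3 genes (ZWINT, KIF2C and CDKN1C), or 6.38%, all implantation arrays lay below, against 8.09%. Of all 47 genes 30 had a positive difference, or 63.8% against 47.6% of all genes, and their median was 0.06, against -0.01 over all genes.

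**Figure D1:**
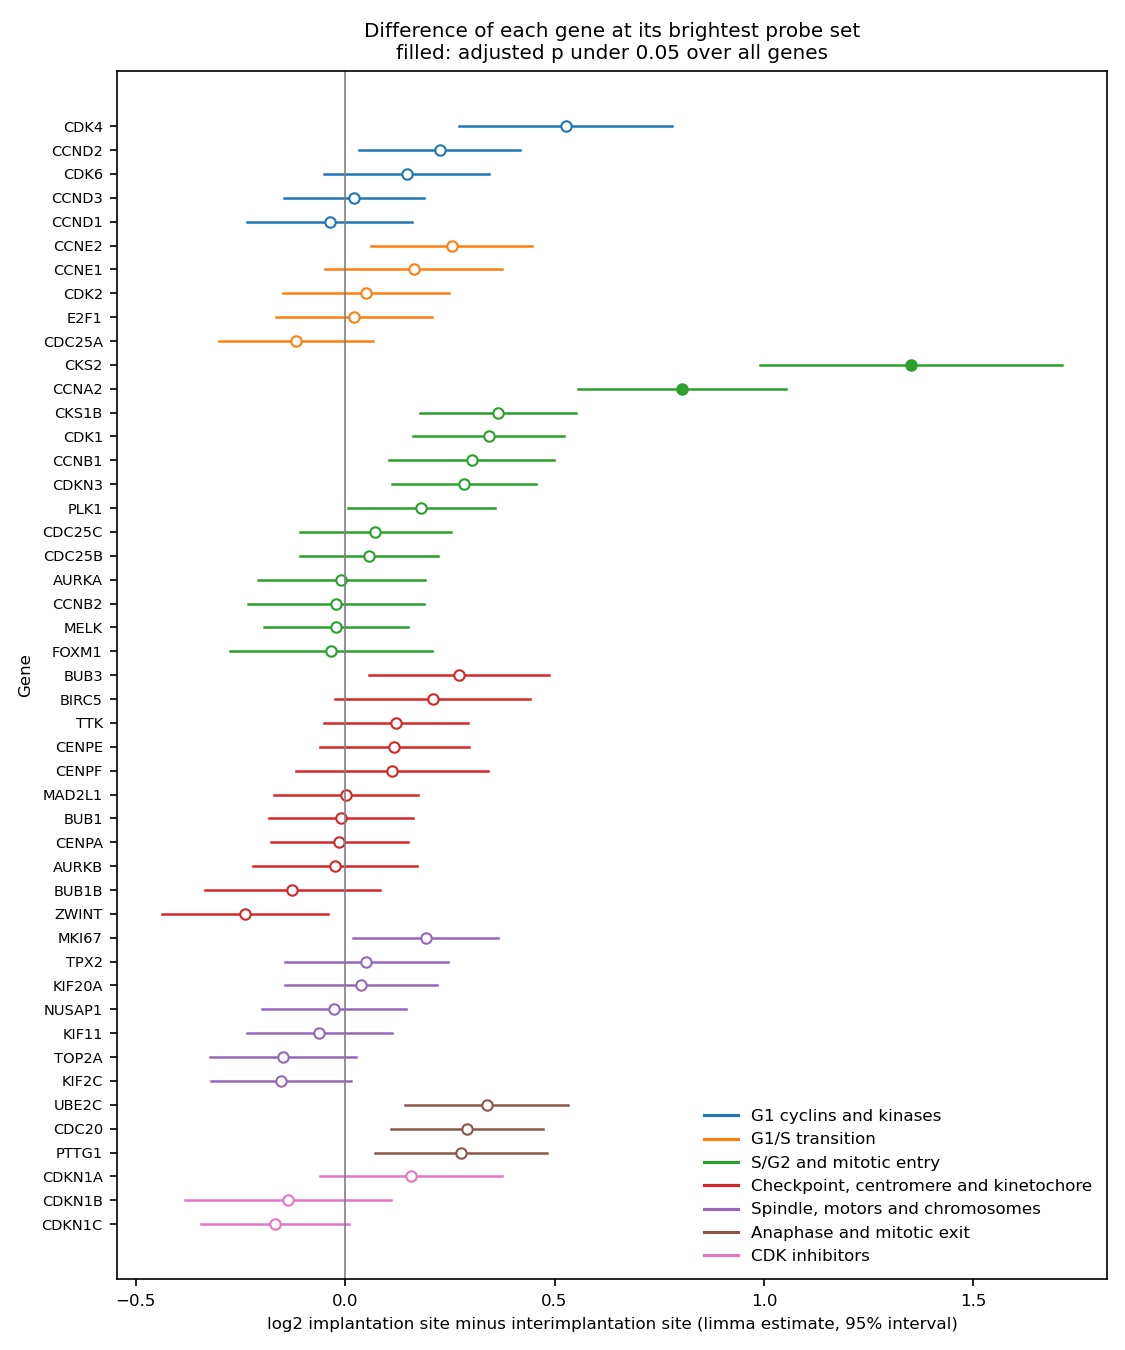
Difference of each of the 47 genes at its brightest probe set (log2 implantation site minus interimplantation site, point) with its 95% interval from limma (line), ordered by cell cycle role; filled points passed the adjusted threshold. CKS2 (1.35) and CCNA2 (0.80) stand apart, the 3 genes of mitotic exit lie together between 0.28 and 0.34, and spindle and kinetochore genes lie on both sides of 0, from -0.24 to 0.27.

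The genes of S phase, G2 and mitotic entry held both rises. CKS2 (probe set 204170_s_at) read 6.14, 6.25 and 6.18 at implantation sites, against 4.38, 5.25 and 4.89 at interimplantation sites. The implantation arrays lay close together, and the spread sat among the interimplantation arrays, of which replicate 1 was lowest. The means were 6.19 ± 0.06 at implantation and 4.84 ± 0.44 at interimplantation sites (SD, n = 3 arrays per group), a difference of 1.35 ± 0.16 SE (limma adjusted p = 0.00172). CKS1B, the other CDK subunit of this kind, read 6.22, 6.11 and 6.07 against 5.65, 5.78 and 5.88, with a difference of 0.37 ± 0.08 SE that did not pass (limma adjusted p = 0.0666). Its arrays did not overlap between groups. The 95% interval of its difference was 0.18 to 0.55, against 0.99 to 1.71 for CKS2, although probe sets of different genes can respond unequally and the 2 differences were not tested against each other.

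CCNA2 (probe set 203418_at) read 4.67, 4.69 and 4.39 at implantation sites, against 3.58, 4.0 and 3.76 at interimplantation sites, near the median brightness. Its means were 4.58 ± 0.16 and 3.78 ± 0.21 (SD, n = 3), a difference of 0.80 ± 0.11 SE (limma adjusted p = 0.00432). The dimmer probe set of CCNA2, 213226_at, did not share the rise: it read 2.82, 2.75 and 2.94 against 2.64, 2.83 and 2.98, a difference of 0.02 under the first quartile of brightness. Averaged over both probe sets CCNA2 was at 0.41 and no longer passed (limma adjusted p = 0.0591).

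CDK1, the kinase of mitosis, and CCNB1, its partner cyclin B1, had smaller differences. The brightest CDK1 probe set read 5.61, 5.75 and 5.54 at implantation sites, against 5.35, 5.22 and 5.31 at interimplantation sites, a difference of 0.34 ± 0.08 SE (limma adjusted p = 0.0786). A second CDK1 probe set was at 0.23 with no overlap, and the dimmest one was at -0.01. CCNB1 read 3.85, 3.90 and 3.74 against 3.60, 3.36 and 3.62, at 0.30 ± 0.09 SE (limma adjusted p = 0.180), while CCNB2, cyclin B2, read 4.33, 4.41 and 4.33 against 4.16, 4.43 and 4.53, at -0.02. Thus the implantation arrays of CCNB1 lay above all interimplantation arrays, whereas those of CCNB2 lay inside their range.

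CDKN3, a phosphatase that acts on CDKs, read 4.69, 4.71 and 4.57 at implantation sites, against 4.34, 4.46 and 4.32 at interimplantation sites (difference 0.28). PLK1, a kinase of mitotic entry, read 5.42, 5.63 and 5.48 against 5.35, 5.35 and 5.29 (difference 0.18, limma adjusted p = 0.430). Both had groups that did not overlap, and neither passed. The rest of the mitotic entry genes had differences near 0. FOXM1, the transcription factor of the G2 and mitosis programme, was at -0.03, with a 95% interval of -0.28 to 0.21. The mitotic kinase AURKA was at -0.01 (interval -0.21 to 0.19), and its 3 probe sets lay between -0.05 and 0.00. CDC25B and CDC25C, phosphatases that activate CDKs, were at 0.06 and 0.07, and the kinase MELK at -0.02. Of this group 2 of 13 genes rose, 0 fell, 7 had a positive difference at an unadjusted p under 0.05, and the median was 0.18, against 0.777%, 0.46%, 5.68% and -0.01 over all genes.

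**Figure D2:**
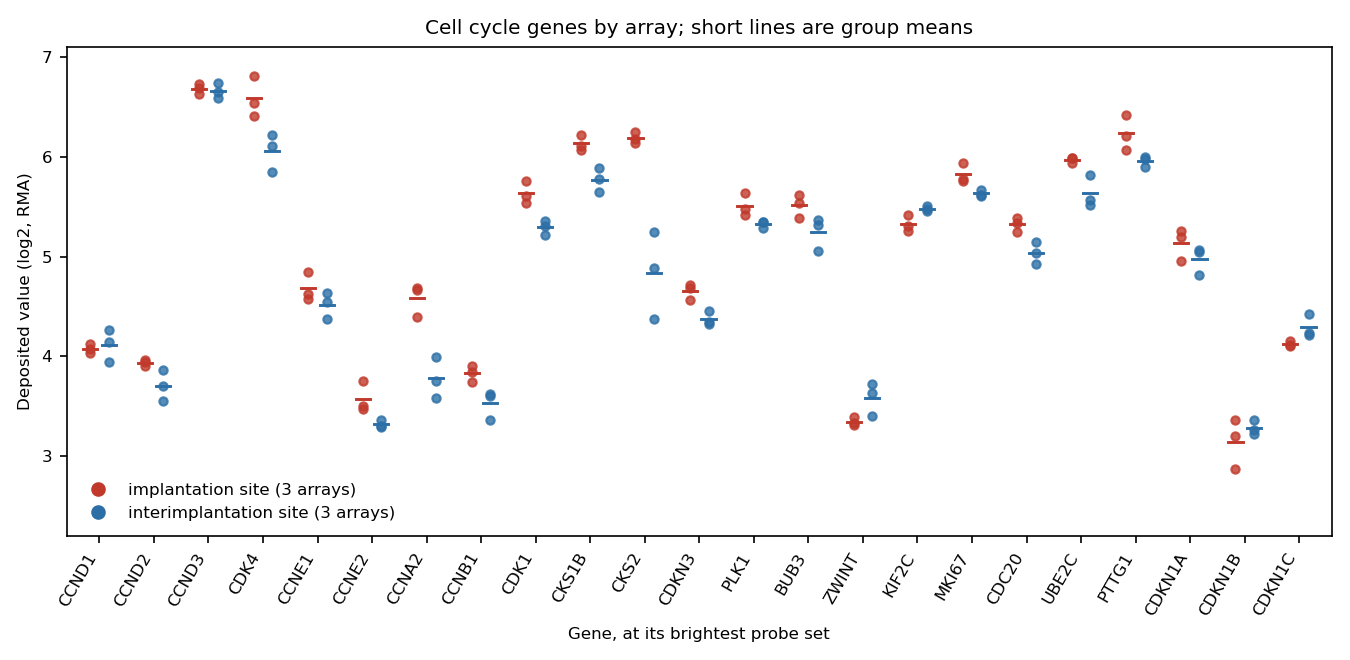
Deposited log2 value on each of the 6 arrays (points) and group means (short lines) for 23 of the genes whose values the text gives by array, implantation sites left and interimplantation sites right of each gene's position; heights of different genes are not comparable. The groups are widest apart in CKS2 and CCNA2, and in CCND1, CCND3, CCNE1, CDKN1A and CDKN1B they overlap.

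Genes of anaphase and mitotic exit had differences of similar size, although 0 of 3 passed, against 0.777% of all genes that rose and 0.46% that fell. UBE2C, the ubiquitin-conjugating enzyme of the anaphase-promoting complex, read 5.99, 5.94 and 5.99 at implantation sites, against 5.82, 5.56 and 5.52 at interimplantation sites, a difference of 0.34 ± 0.09 SE (limma adjusted p = 0.109). CDC20, which activates that complex, read 5.25, 5.39 and 5.34 against 5.03, 5.14 and 4.92, at 0.29 ± 0.08 SE (limma adjusted p = 0.148). PTTG1, the securin that the complex destroys to let chromatids part, read 6.42, 6.07 and 6.21 against 5.90, 5.97 and 6.0, at 0.28 ± 0.09 SE (limma adjusted p = 0.256). All 3 were bright and had a single probe set. In all 3 the implantation arrays lay above the interimplantation arrays, against 8.36% of all genes. UBE2C passed without interimplantation replicate 1, its highest array of that group (0.43, limma adjusted p = 0.0264), and with arrays weighted by quality (0.36, adjusted p = 0.0467).

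Among the G1 genes the kinase CDK4 came closest to the threshold. It read 6.54, 6.81 and 6.41 at implantation sites, against 5.85, 6.22 and 6.11 at interimplantation sites, a difference of 0.53 ± 0.12 SE (1.44-fold, limma adjusted p = 0.0524). It did not pass when any 1 array was left out (adjusted p up to 0.173), but passed under 6 other alternatives of the fit, at adjusted p-values from 0.0218 to 0.0488. CDK6, the related kinase, read 5.12, 5.10 and 5.34 against 4.93, 5.13 and 5.06, at 0.15 with overlapping groups.

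The 3 D-type cyclins, partners of CDK4 and CDK6, gave no rise that passed the threshold. CCND3 was the brightest of the member probe sets and read 6.63, 6.73 and 6.69 at implantation sites, against 6.74, 6.59 and 6.65 at interimplantation sites. Its groups overlapped, and the difference was 0.02, with a 95% interval of -0.15 to 0.19. CCND1 read 4.13, 4.03 and 4.07 against 3.94, 4.14 and 4.26, at -0.04, and its dimmer probe set was at -0.13. CCND2 read 3.94, 3.90 and 3.96 against 3.55, 3.86 and 3.70, at 0.23 with no overlap (limma adjusted p = 0.349), while its other probe sets were at -0.14 and -0.11. The evidence on CCND2 was therefore mixed between its probe sets. Of the 5 genes of this group 0 passed, against 0.777% of all genes that rose and 0.46% that fell, and their median was 0.15. At an unadjusted p under 0.05, 2 of 5 (CDK4 and CCND2) had a positive difference, against 5.68% of all genes. Over all 8 probe sets of the group the median was -0.008.

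At the G1/S transition 0 of 5 genes passed, against 0.777% of all genes that rose and 0.46% that fell, with a median of 0.05. CCNE2, cyclin E2, read 3.50, 3.75 and 3.47 at implantation sites, against 3.29, 3.36 and 3.30 at interimplantation sites, at 0.25 ± 0.09 SE (limma adjusted p = 0.267). CCNE1, cyclin E1, read 4.85, 4.57 and 4.63 against 4.54, 4.64 and 4.37, at 0.16. The groups of CCNE2 did not overlap, those of CCNE1 did. CDK2, the kinase both cyclins bind, was read by 3 probe sets that lay between 0.01 and 0.05. E2F1, a transcription factor of S phase genes, was at 0.02, and the phosphatase CDC25A at -0.12 (interval -0.30 to 0.07).

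The checkpoint, centromere and kinetochore genes showed no common direction, with 6 positive and 5 negative differences and a median of 0.00. Past the threshold were 0 of 11, against 0.777% of all genes that rose and 0.46% that fell. BUB3, a checkpoint protein, read 5.39, 5.54 and 5.62 at implantation sites, against 5.36, 5.05 and 5.32 at interimplantation sites, at 0.27 (limma adjusted p = 0.292). Its other 3 probe sets, all dimmer than the median, lay between -0.06 and 0.02. ZWINT, a kinetochore protein, ran the other way and read 3.33, 3.39 and 3.32 against 3.63, 3.40 and 3.72, at -0.24 ± 0.09 SE (limma adjusted p = 0.321). No other member had a negative difference at an unadjusted p under 0.05.

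BUB1, a checkpoint kinase, had 5 probe sets whose differences ran from -0.01 to 0.13 with none past an unadjusted p of 0.05, the brightest reading 5.43, 5.59 and 5.46 against 5.45, 5.57 and 5.48. BUB1B, its relative, was at -0.13, the checkpoint kinase TTK at 0.12 and the checkpoint protein MAD2L1 at 0.00. TTK and MAD2L1 lay under the first quartile of brightness. CENPA, the histone of the centromere, was bright and at -0.01 (interval -0.18 to 0.15), and the kinetochore proteins CENPE and CENPF were at 0.12 and 0.11. Of the chromosomal passenger proteins, BIRC5 (survivin) was at 0.21 at its brightest of 3 probe sets, with the others at -0.04 and 0.02, and the kinase AURKB was at -0.02.

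Markers and motors of dividing cells were also mixed, with a median of -0.03 at their brightest probe sets. Here 0 of 7 genes passed the threshold, against 0.777% of all genes that rose and 0.46% that fell. Over all 13 probe sets of these genes the median was 0.04, with 9 positive and 4 negative differences. Of the 13, 3 had a positive difference at an unadjusted p under 0.05, against 5.27% of all probe sets, and 0 a negative one. MKI67, which encodes the Ki-67 protein used to stain cycling cells, read 5.94, 5.75 and 5.78 at implantation sites, against 5.61, 5.67 and 5.62 at interimplantation sites, at 0.19 ± 0.08 SE (limma adjusted p = 0.381). All 4 of its probe sets had a positive difference, from 0.03 to 0.19. TOP2A, the topoisomerase that untangles chromosomes, was dim at both probe sets, which were at -0.15 and, at the dimmer one, at 0.24 with no overlap.

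KIF2C, a motor that takes microtubules apart, read 5.30, 5.42 and 5.26 at implantation sites, against 5.48, 5.50 and 5.45 at interimplantation sites, at -0.15. Its second probe set read 5.34, 4.83 and 4.80 against 4.54, 4.78 and 4.72, at 0.31, with implantation replicate 1 highest. The groups did not overlap at either probe set, in opposite directions, so no direction can be given for KIF2C. The spindle motor KIF11 was dim and at -0.06, the cytokinesis motor KIF20A at 0.04, and the spindle proteins TPX2 and NUSAP1 at 0.05 and -0.03. The dimmer probe set of NUSAP1 was at 0.14 with no overlap.

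The CDK inhibitors, set apart from the genes that drive division, had a median of -0.14. In this group 0 of 3 passed the threshold, against 0.777% of all genes that rose and 0.46% that fell. CDKN1A read 5.25, 4.96 and 5.20 at implantation sites, against 4.82, 5.05 and 5.07 at interimplantation sites, at 0.16 with overlapping groups (interval -0.06 to 0.38). CDKN1B read 2.87, 3.36 and 3.20 against 3.26, 3.22 and 3.36, at -0.14, and its sign turned without implantation replicate 1 (0.0019). CDKN1C read 4.11, 4.11 and 4.15 against 4.42, 4.23 and 4.21, at -0.17 ± 0.08 SE (limma adjusted p = 0.489), with all implantation arrays below the interimplantation arrays. Its other 4 probe sets were dimmer and lay between -0.08 and 0.02. Without the inhibitors the median of the remaining 44 genes was 0.06.

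**Figure D3:**
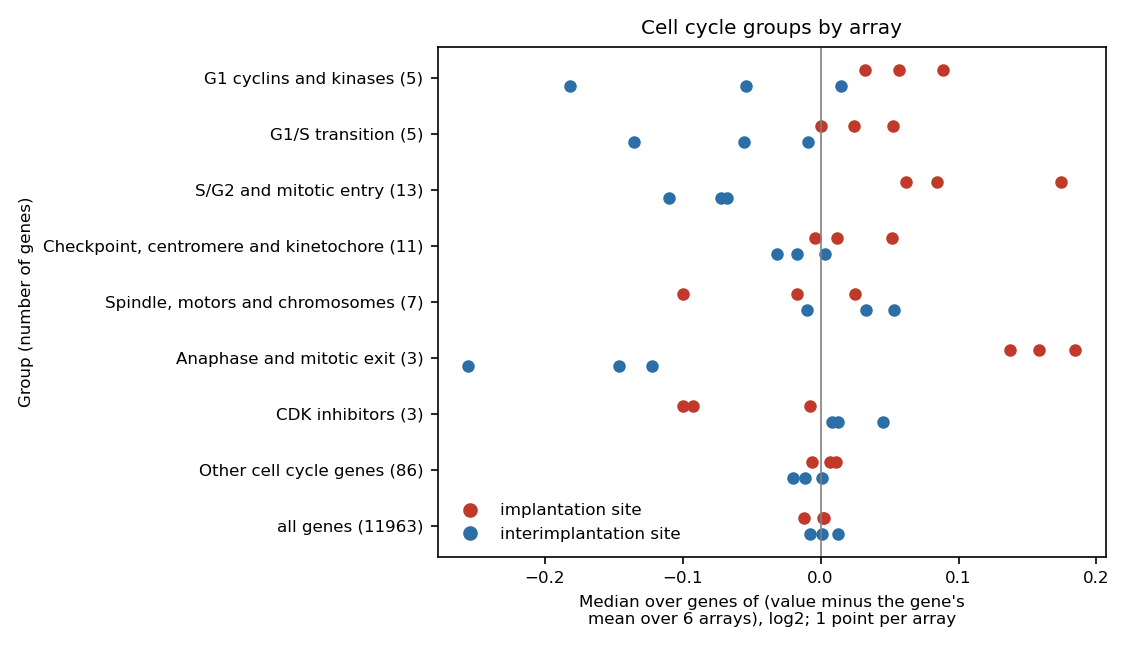
For each group of genes and each array, the median over genes of the value minus that gene's own mean over the 6 arrays (log2), implantation sites drawn above interimplantation sites. The S/G2 and mitotic entry group lies between 0.06 and 0.17 at implantation sites and between -0.11 and -0.07 at interimplantation sites, while the spindle group overlaps.

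Seen array by array, the shift was shared by all implantation arrays in some groups only. With each gene set to its own mean over the 6 arrays, the 13 genes of S/G2 and mitotic entry had medians of 0.06 to 0.17 on implantation arrays, against -0.11 to -0.07 on interimplantation arrays. The 3 mitotic exit genes had medians of 0.14 to 0.18 against -0.26 to -0.12. As none of the 3 overlapped by itself, their medians could not overlap either. The G1 group (0.03 to 0.09 against -0.18 to 0.02) and the G1/S group (0.00 to 0.05 against -0.14 to -0.01) did not overlap either, by narrower gaps. The medians of the 3 inhibitors lay the other way (-0.10 to -0.01 against 0.01 to 0.04), although CDKN1A itself was at 0.16. Spindle and chromosome genes overlapped, at -0.10 to 0.03 against -0.01 to 0.05, as did checkpoint and kinetochore genes, at 0.00 to 0.05 against -0.03 to 0.00. All genes together lay at -0.01 to 0.00 against -0.01 to 0.01.

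Which probe set reads a gene mattered for the band of 15 genes. These genes had 12 further, dimmer probe sets, of which 1 (CDK1) had a positive difference at an unadjusted p under 0.05, 0 had a negative one, and 6 lay under the first quartile of brightness. All 12 belonged to CCND2, CCNE2, CCNA2, CDK1, BUB3 and MKI67. The other genes of the band, CKS2 among them, had a single probe set and could not be compared in this way. Over all 83 member probe sets 2 rose, or 2.41%, and 0 fell, against 0.702% and 0.356% of all 22215 probe sets, and 18 had a positive difference at an unadjusted p under 0.05, or 21.7% against 5.27%. The band held bright and dim genes: 11 of the 27 genes at or above the median brightness had a positive difference at an unadjusted p under 0.05, or 40.7% against 6.87% of all genes that bright, and 4 of 20 dimmer ones did, or 20% against 3.84% of all genes that dim.

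The kind of probe set also differed within the band. Affymetrix marks with _s_at a probe set that matches several transcripts, often variants of 1 gene, and with _x_at one that may also bind unrelated transcripts. Among member genes read by such probe sets 12 of 24 had a positive difference at an unadjusted p under 0.05, or 50%, against 6.62% of all genes read that way. Among the 23 members read by the remaining kind 3 did (CCNA2, PLK1 and UBE2C), or 13%, against 5% of all such genes. CKS2 had a single probe set, of the _s_at kind, CDK1, BUB3 and PTTG1 were read by _x_at probe sets, and which hamster transcripts these bound was not tested. Without both kinds 30 members remained, 1 rose (CCNA2), and the median was -0.010.

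**Figure D4:**
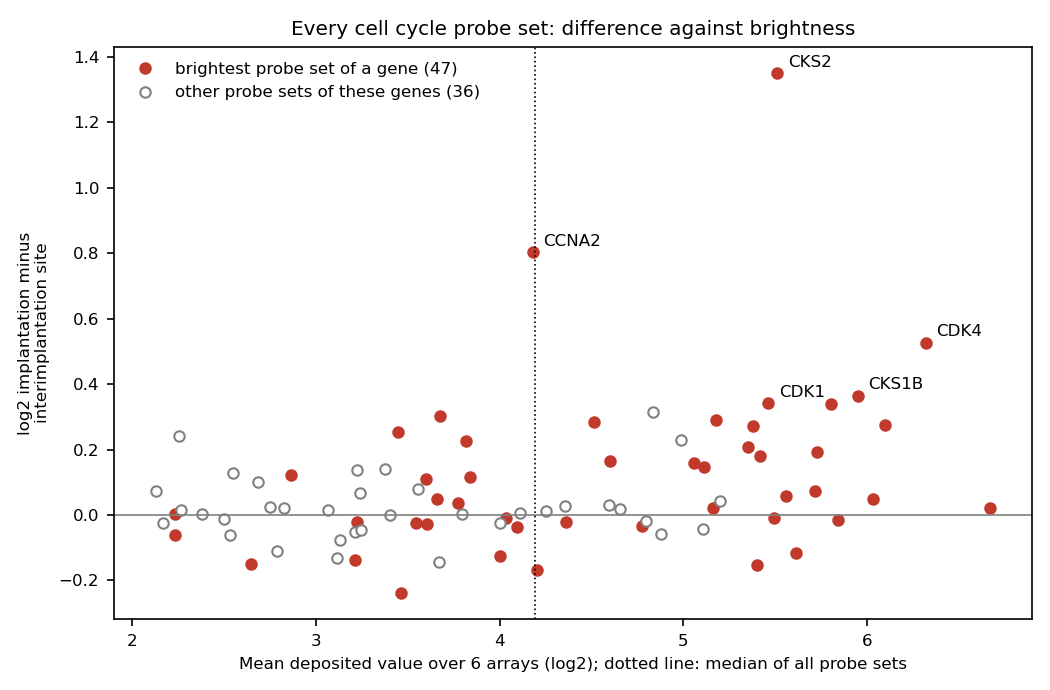
Difference (log2 implantation site minus interimplantation site) against mean value over the 6 arrays for all 83 member probe sets; filled points are the brightest probe set of each of the 47 genes, open points their 36 other probe sets, and the dotted line is the median brightness of all probe sets. The positive differences over 0.34 all belong to brightest probe sets. Just left of the dotted line CCNA2 stands out at 0.80, and the other probe sets left of it lie on both sides of 0, from -0.24 to 0.30.

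Other genes of the cell cycle, from a list of 96 of which 86 were measured, gave 2 rises and 0 falls, or 2.33% against the same 0.777% and 0.46%. This list too was chosen with earlier results of these data known. H2AZ1, a histone variant, read 9.58, 9.60 and 9.57 at implantation sites, against 8.40, 8.81 and 8.29 at interimplantation sites, a difference of 1.08 ± 0.12 SE (limma adjusted p = 0.000847). UBE2S, which extends ubiquitin chains for the anaphase-promoting complex alongside UBE2C, read 6.65, 6.53 and 6.59 against 5.92, 6.05 and 5.53, at 0.75 ± 0.12 SE (limma adjusted p = 0.00694). In both the implantation arrays were tight and the interimplantation arrays spread, as in CKS2. Of these 86 genes 6 had a positive difference at an unadjusted p under 0.05, or 6.98%, close to the 5.68% of all genes, and their median was 0.02.

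Some markers of other cell types and the actin measure of RNA quality lay apart between the groups as well, and their part in the rises of CKS2 and CCNA2 was not tested. Of 8 smooth muscle markers 3 fell (ACTG2, TAGLN and MYLK), against 0.46% of all genes, and 0 rose. The list was mixed, with 5 negative and 3 positive differences. CNN1 was lower, at -0.23 with no overlap, but was not called. At an unadjusted limma p under 0.05, 4 of 8 were lower and 0 higher, against 5.22% and 5.68% of all genes. ACTA2 was higher, at 0.15 with no overlap, and MYH11, DES and SMTN were at 0.00, -0.02 and 0.02. The summed level of the list was 8.62 to 8.63 at implantation sites and 8.75 to 9.04 at interimplantation sites (log2 of the summed signal). The 7 stromal markers had 1 fall (PDGFRA) and 0 rises, against 0.46% and 0.777% of all genes, with sums of 9.77 to 10.03 and 10.12 to 10.39. Of these markers 4 had a negative and 3 a positive difference. HAND2 (0.18) was higher and DCN (-0.25) lower, both with no overlap. LUM was dim, as was EPCAM among the epithelial ones. The 9 epithelial markers had 0 calls, against the same shares, with sums of 7.66 to 7.76 and 7.79 to 7.89. Of them 7 had a negative and 2 a positive difference. At an unadjusted limma p under 0.05, 3 were lower (KRT19, KRT8 and CLDN3) and 0 higher, against 5.22% and 5.68% of all genes. The sums of the smooth muscle, stromal and epithelial lists did not overlap between groups. A sum weighs bright probe sets most. With each gene set to its own mean over all arrays, the medians of the stromal list did overlap (-0.083 to 0.036 against -0.003 to 0.058). Those of the smooth muscle list (-0.16 to -0.03 against 0.02 to 0.13) and the epithelial list (-0.07 to -0.04 against 0.06 to 0.11) did not. The 11 markers of trophoblast and early embryo had 0 calls and 0 at an unadjusted p under 0.05. Over all genes 5.68% were higher and 5.22% lower at that p. The sums of these markers overlapped, at 8.02 to 8.06 and 8.01 to 8.11, and GATA4 and GATA6 were dim. The 8 endothelial markers had 0 calls, and their sums overlapped, at 7.66 to 7.72 and 7.72 to 7.84. Their medians, with each gene set to its own mean, did not overlap, at -0.064 to -0.003 against 0.001 to 0.090. Of them 7 had a negative and 1 a positive difference. Of 8 leukocyte markers SPI1 fell and 0 rose, against 0.46% and 0.777% of all genes. The leukocyte sums overlapped, at 7.70 to 7.73 and 7.67 to 7.76. A piece of uterus mixes cell types, so more cells in division and more of these transcripts per cell cannot be told apart. RNA quality was read from probe sets against opposite ends of 1 transcript, also designed on human transcripts. How well each end matches the hamster was not tested. The groups overlapped for GAPDH but not for actin. The log2 signal of actin at the 3′ end minus that at the 5′ end was -2.08 ± 0.22 in implantation and -1.70 ± 0.15 in interimplantation arrays (SD, n = 3; two-sided exact permutation p = 0.1, which is the smallest possible), and that of GAPDH was -0.20 ± 0.16 and 0.13 ± 0.17 (exact permutation p = 0.2).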

How the data were processed

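The deposited values are log2 signals, 1 for each probe set on each array, which the authors computed by RMA (software Partek 6.6, per the submitters' processing notes). Neither the RMA settings nor the log base is stated; log2 was read from the range of the values. Of 22283 probe sets 68 controls were left out. Platform annotation gave 1 gene to 19065 of the remaining 22215, several to 1043 and none to 2107. A gene was read at its brightest probe set, by the mean of all 6 arrays. All 48 symbols occur in the hamster RefSeq annotation of BCM_Maur_2.0, which was used for names only.

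Implantation and interimplantation arrays were set against each other in limma 3.58.1 (R 4.3.3; functions lmFit and eBayes, two-sided, no covariate), separately over all probe sets and over all genes. The fit was tested on simulated data. The number of arrays limits the precision, and no scan date was used, so no batch could be tested. The members and lists were chosen with earlier results of these data known. Values by array are given for genes past the threshold, for at least 2 genes per role by smallest p, for the D-type cyclins and for the inhibitors; CCNB1, CDK1, CKS1B, CDKN3, PLK1, PTTG1, CCNB2, CDK6 and BUB1 were added after their values were seen, as was the comparison by probe set suffix. Alternatives covered normalization, dim and cross-hybridising probe sets, the probe set of a gene, the replicate number as a block, the variance model and single arrays left out.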

Additional observations from a re-analysis of the deposited data

How the results depend on the processing

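CKS2 passed in every alternative in which it was measured (differences of 1.12 to 1.56), and CCNA2 in all where it was measured except when probe sets of a gene were averaged; leaving out single arrays gave 1.12 to 1.56 and 0.71 to 0.91. The count of genes that rose was 2 to 3 and that of genes that fell 0 when single arrays were left out, with medians over members of 0.06 to 0.09. It was 1 (CKS2) with probe sets averaged per gene. It was 1 (CCNA2) without _s_at and _x_at probe sets, where CKS2 has none left, 1 probe set rose, and the median turned to -0.010 over the 30 genes still read, some at another probe set. The median was 0.16 among genes at or above the median brightness. CDK4 passed with either filter on brightness, with the most variable probe set, with trend and robust variance and with both blocks. Signs turned, with no call, for BUB3 (-0.047 without _x_at probe sets), CDK1 (-0.011 without _s_at and _x_at), CCND2 (-0.0090) and KIF2C (0.080) with probe sets averaged, and KIF2C (0.31) and CDKN1C (0.015) with the most variable one; each of these settings read the gene at other probe sets or at the mean of all of them. With single arrays left out CDKN1B ranged from -0.24 to 0.0019, CCND3 from -0.012 to 0.063 and CCND1 from -0.12 to 0.036; the cause was not tested. With the replicate number as a block 3 genes rose and 0 fell, CDK4 (adjusted p = 0.0218) being added; same-numbered arrays had correlations of deviations of 0.054, -0.0025 and 0.070, not every array matched its own number best, and the labels do not say what the number shares. Dim probe sets limit the reading of TTK, MAD2L1, KIF11 and TOP2A.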
